A study of Mus musculus with 2 samples.

Results

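Prkag3, Brsk2, Mark2 and Pfkfb3 are 4 genes of energy sensing and cell polarity. All 4 appear in a table of genes with higher RNA values in a BG4 library of mouse forebrain than in its control. They were taken by name as a subunit of AMP-activated protein kinase (AMPK), a pair of AMPK-related kinases and a regulator of glycolysis tied to AMPK, and they made up 4 of the 170 genes in the table. BG4 is an antibody that recognises G-quadruplexes, four-stranded folds of nucleic acid rich in guanine. Lysate was passed over a column carrying His-tagged BG4, or normal rabbit IgG as control, and the RNA held on the column was sequenced, with 1 BG4 library and 1 IgG library. The labels give no strain, age or genotype of the mice and do not say how many animals were used. The values were taken to be FPKM (sequenced fragments relative to the length of the transcript and the size of the library), as the layout of the table is that of Cuffdiff.

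AMPK is a sensor of cellular energy with a catalytic alpha, a scaffolding beta and a nucleotide-binding gamma subunit. When energy is low it switches off processes that consume ATP and favours those that produce it. The kinase LKB1 activates AMPK and a family of related kinases, among them the BRSK kinases, which act in axon formation and synapse development, and the MARK kinases, which phosphorylate tau and other proteins on microtubules. Prkag3 encodes the gamma 3 subunit, known mainly from skeletal muscle. Pfkfb3 encodes an enzyme that makes and breaks down the fructose bisphosphate that activates phosphofructokinase and so stimulates glycolysis.

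The table held only genes that were higher in the BG4 library. The 4 genes were chosen by name from that table with their BG4 and IgG values known. Their direction and the size of their ratios are therefore a description, with no test. After 1 FPKM was added to each value, the BG4 value exceeded 2 times the IgG value for all 4 genes, and it did so for 100% of the table. The median log2 ratio on that scale was 3.61 for the 4 genes and 2.87 for all 170. There were no replicates, so spread between samples could not be measured, and the depth of the libraries is unknown. Of 19 markers of forebrain and its cell types, 0 were in the table, so the labelled tissue could not be checked against its markers.

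The sequences that could form a G-quadruplex are shown first, since that structure is what the antibody recognises. The search took 4 runs of GGG or longer, joined by loops of 1 to 7 bases of any kind, on the longest GENCODE M21 transcript of Mark2, Brsk2 and Prkag3 and on the strand of the transcript only. Capitals mark the guanine runs.
Mark2 motif 1, 5' UTR: GGGGGtcGGGgGGGgGGG
Mark2 motif 2, 3' UTR: GGGGaGGGGGctGGGGGGGGGcaGGG
Mark2 motif 3, 3' UTR: GGGGctcctGGGaGGGtggctcaGGG
Mark2 motif 4, 3' UTR: GGGGaGGGGaatGGGccatGGG
Brsk2 motif 1, 3' UTR: GGGtgtGGGGtGGGGccgctGGGG
In mm10 the Mark2 motifs lie on the minus strand of chromosome 19, at 7341435 to 7341452 for motif 1, 7276821 to 7276846 for motif 2, 7276652 to 7276677 for motif 3 and 7276282 to 7276303 for motif 4. The Brsk2 motif lies on the plus strand of chromosome 7 at 142003300 to 142003323. A match is a pattern of letters and does not show that a structure forms.

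Mark2 had 4 motifs, Brsk2 had 1 and Prkag3 had 0. Of these 5 motifs, 4 lay in 3' UTRs, 1 in a 5' UTR and 0 in coding sequence. Regions were not counted over the rest of the table, so no preference for a region can be read from this. The Brsk2 transcript searched has no annotated 5' UTR, so no motif could be counted there. The first motif of Mark2 has a single stretch of 11 guanines after its first loop, and it met the pattern only because guanine could serve as a loop base. The 3 motifs in the Mark2 3' UTR began 243, 412 and 786 bases after the stop codon. The Brsk2 motif began 1067 bases after the stop codon.

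**Figure D1:**
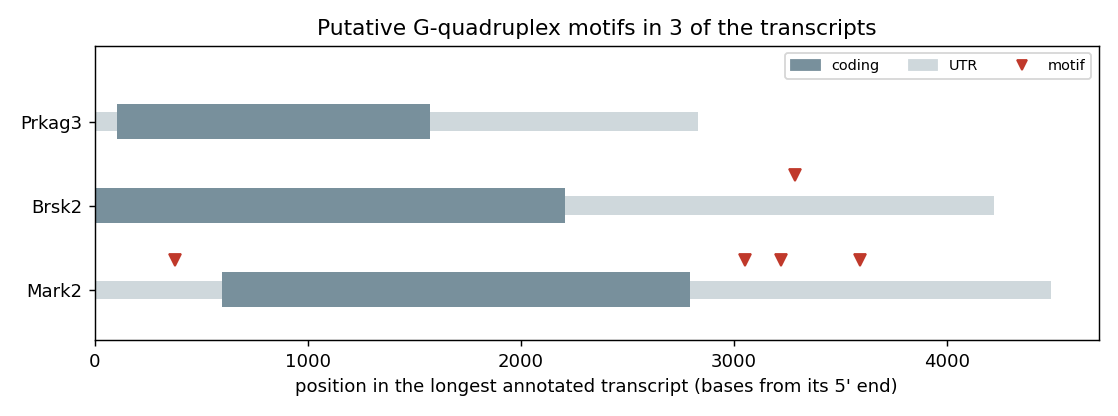
Position in bases from the 5' end along the longest annotated transcript of Prkag3, Brsk2 and Mark2, from top to bottom, with coding sequence as tall dark bars, UTRs as thin light bars and each motif as a triangle. Mark2 carries 4 motifs, 3 of them in the 3' UTR, Brsk2 carries 1 in the 3' UTR, and Prkag3 carries none.

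Prkag3, the gene with 0 motifs, had none in any of its 6 annotated transcripts. With runs of 2 or more guanines it had 6 matches, 4 in coding sequence and 2 in the 3' UTR. The match with the most guanines lay in the 3' UTR, on the minus strand of chromosome 1 at 74739594 to 74739612. It is shown because some of its runs have only 2 guanines, unlike the runs of the motifs above.
Prkag3, runs of 2 or more guanines: GGGaGGatgtgaGGGGaGG
Under the same looser pattern Mark2 had 27 matches and Brsk2 12. Per kilobase of transcript that was 6.02 in Mark2, 2.84 in Brsk2 and 2.12 in Prkag3, beside a median of 2.46 over the table. Mark2 was rank 6 of 170, and Brsk2 and Prkag3 were nearer the middle of the table, at ranks 67 and 98.

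Prkag3 stood at 36.5 FPKM in BG4 and 0.190 FPKM in IgG. Its log2 ratio was 4.98, rank 11 of 170, and without a pseudocount the fold was 192. It was the gene with the highest ratio of the 4 on both scales. In the authors' deposited table its p-value was 0.0225 and its q-value 0.237, both the highest of the 4. Its locus (ENSMUSG00000006542.9) ran from 74738922 to 74749221 on the minus strand of chromosome 1 and shared no exon bases with another annotated gene.

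Brsk2, a kinase found mainly in brain that acts in neuronal polarity, stood at 5.17 FPKM in BG4 and 0.0645 FPKM in IgG. Its log2 ratio was 2.54, rank 119, and its fold without a pseudocount was 80.2. Both values were low for the table, whose medians were 7.88 FPKM in BG4 and 0.143 FPKM in IgG. In the authors' deposited table its p-value was 0.0014 and its q-value 0.0525. The locus (ENSMUSG00000053046.10) ran from 141949751 to 142004247 on the plus strand of chromosome 7. Its exons shared 2 bases with the microRNA gene Mir3104 on the same strand, and reads over those bases could belong to either gene.

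Mark2, a kinase that detaches tau and related proteins from microtubules, stood at 4.63 FPKM in BG4 and 0.0302 FPKM in IgG. The IgG value was among the lowest of the table, with 5 genes below it. Its log2 ratio was 2.45, rank 125, and its fold without a pseudocount was 153, rank 33. In the authors' deposited table its p-value was 0.00025 and its q-value 0.0179, the only q-value of the 4 under 0.05, as it was for 14 genes in all. With 1 library per antibody, those p-values and q-values describe the pair of libraries only. The locus (ENSMUSG00000024969.11) ran from 7275396 to 7341860 on the minus strand of chromosome 19, with the antisense gene Gm17227 inside it but sharing no exon bases.

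Pfkfb3 stood at 53.1 FPKM in BG4 and 1.09 FPKM in IgG, the highest value of the 4 in both libraries. Only 17 genes of the table reached 1 FPKM in IgG, and Pfkfb3 was one of them. Its log2 ratio was 4.69, rank 15, whereas its fold without a pseudocount was 48.6, the lowest of the 4 and below the table median of 54.2. In the authors' deposited table its p-value was 0.00135 and its q-value 0.0525. The locus (ENSMUSG00000026773.15) ran from 11471433 to 11554077 on the minus strand of chromosome 2. It contained the antisense gene Gm10851 and Gm37975, a gene on the same strand, neither of which shared exon bases with it.

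**Figure D2:**
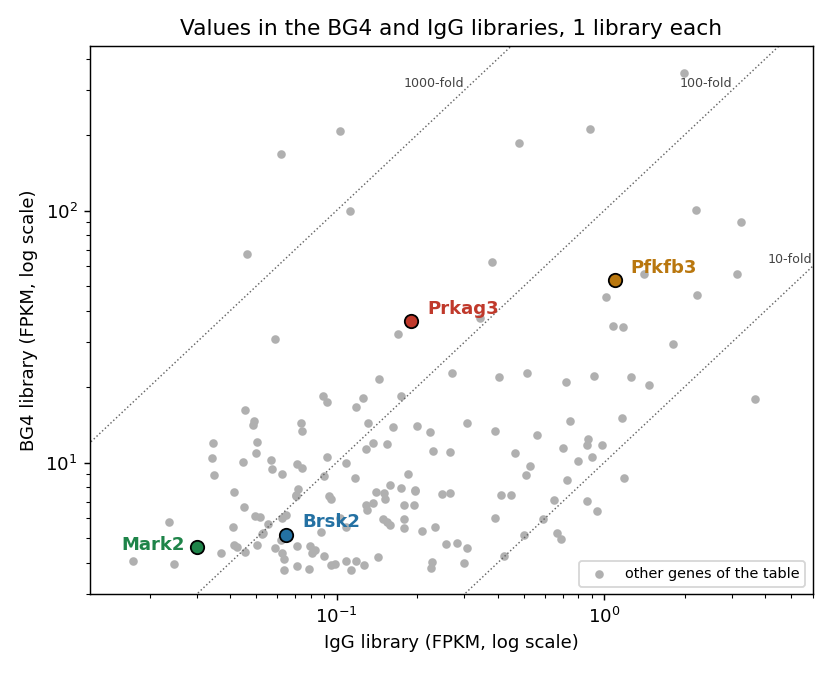
Value of each gene in the BG4 library (vertical axis) against the IgG library (horizontal axis), in FPKM on log scales, with 1 library each, dotted lines of equal fold, and Ccdc107 and Timm10b outside the plotted range. Prkag3 and Pfkfb3 lie high in BG4, at 36.5 and 53.1 FPKM, and Brsk2 and Mark2 lie low, at 5.17 and 4.63 FPKM.

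The 4 genes thus fell into a high and a low pair by BG4 value. No input library was among the samples. A BG4 value therefore does not separate how abundant a transcript was from how much of it was held on the column. Prkag3 and Pfkfb3 were ranks 18 and 14 of 170 in BG4, and the kinases Brsk2 and Mark2 ranks 132 and 143. The BG4 value of Prkag3 was 7.05 times that of Brsk2 and 7.88 times that of Mark2, and that of Pfkfb3 was 10.3 and 11.5 times. The IgG values spread more widely: Pfkfb3 had 36.2 times the IgG value of Mark2 and 5.74 times that of Prkag3. The order of the ratios therefore depended on the pseudocount. With 1 FPKM it ran Prkag3, Pfkfb3, Brsk2, Mark2. Without one it ran Prkag3, Mark2, Brsk2, Pfkfb3, at ranks 22, 33, 68 and 96. These ranks count Timm10b, whose IgG value of 2.49e-05 FPKM is effectively 0.

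**Figure D3:**
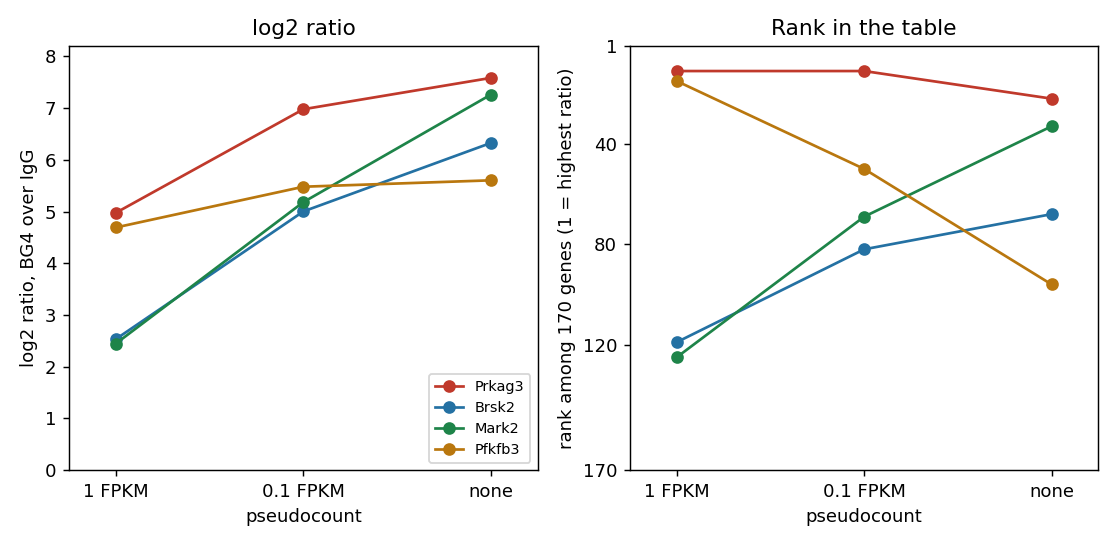
The log2 ratio of BG4 over IgG (left) and its rank among the 170 genes (right, 1 the highest) for each gene with a pseudocount of 1 FPKM, 0.1 FPKM or none, joined by lines. Prkag3 stays the highest of the 4 throughout, Mark2 moves to rank 33 from 125, and Pfkfb3 to rank 96 from 15.

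The genes of the table nearest to each of the 4 were found by distance in log2 FPKM over the 2 libraries. Mark2 lay closest of all to Htr2c, a serotonin receptor gene, with 4.61 FPKM in BG4 and 0.0299 in IgG, a distance of 0.0175. The next was Ndufa7, a subunit of respiratory complex I, at 0.303. Brsk2 lay nearest to Mtap7d3 (4.92 FPKM in BG4, 0.0619 in IgG, distance 0.0931) and to Clta, a clathrin light chain gene (distance 0.200). Prkag3 lay nearest to Erlin1, which encodes a protein of the endoplasmic reticulum (32.3 FPKM in BG4, 0.170 in IgG, distance 0.238), and to Ankrd12 (distance 0.851). Pfkfb3 lay nearest to Traf7 (45.4 FPKM in BG4, 1.02 in IgG, distance 0.249) and to Hif3a, a subunit of a hypoxia-inducible factor (56.0 FPKM in BG4, 1.40 in IgG, distance 0.369). With 2 libraries these distances say only that the values were close.

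By log2 ratio with 1 FPKM, the genes just above and below were Itsn1 (4.98) and Znrf2 (4.91) for Prkag3, and Erlin1 (4.83) and Hif3a (4.57) for Pfkfb3. For Brsk2 they were S100a16 (2.54) and Il6ra (2.52), and for Mark2 they were Tef (2.45) and Htr2c (2.44). Genes of equal log2 ratio could differ widely in level: Itsn1 had 100.5 FPKM in BG4 and 2.21 in IgG, and without a pseudocount its fold was 45.5, against 192 for Prkag3.

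The transcripts themselves were not alike in length or composition. The longest transcript had 2832 bases in Prkag3, 4223 in Brsk2, 4488 in Mark2 and 4801 in Pfkfb3, beside a table median of 3713. GC content was 53.1% in Prkag3, 55.3% in Brsk2, 57.3% in Mark2 and 50.2% in Pfkfb3, beside a table median of 51.1%. Guanine alone made up 26.0%, 27.1%, 27.7% and 24.97% of those transcripts in the same order, with a table median of 25.5%. The 3' UTR took 63.8% of the Pfkfb3 transcript, 47.7% of Brsk2, 44.4% of Prkag3 and 37.7% of Mark2. The longest unbroken guanine stretch of Mark2 had 11 bases, and that of Brsk2 and Prkag3 had 5 each.

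Motif counts were set beside those of other transcripts. In the table, 32 of 170 genes had at least 1 motif, 9 had 2 or more, and 2 had 4 or more, of which Mark2 was one. All 32 were protein-coding, 19.6% of the 163 such genes of the table, beside 18.97% of all 21951 annotated. Among annotated protein-coding genes within 20% of the Mark2 transcript in length, 25.4% of 4799 had a motif and 0.396% had 4 or more. Of the 53 table genes in that range of length, 20.8% had a motif. For the Brsk2 length the share with a motif was 16.7% of 54 table genes, beside 24.6% of 5085 annotated genes. For the Prkag3 length it was 10.8% of 37 table genes, beside 19.4% of 4933 annotated genes. In motifs per kilobase Mark2 had 0.891 (rank 3 of 170), Brsk2 0.237 and Prkag3 0.

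Which transcript is taken changed what was found. Of 21 annotated Mark2 transcripts, 6 held motif 2, 3 held motif 1 and a single one held motifs 3 and 4. Brsk2 motif 1 was in 3 of 17 transcripts. The longest Brsk2 transcript has no annotated 5' UTR. Other Brsk2 transcripts held 2 further motifs, shown because the longest transcript lacks them.
Brsk2 motif 2, 5' UTR: GGGGGgGGGcgcGGGGcgcGGG
Brsk2 motif 3, 3' UTR: GGGGaGGGGaGGGGctgcGGG
Motif 2 lies at 141949808 to 141949829 and motif 3 at 141999037 to 141999057 on the plus strand of chromosome 7. Motif 2 opens with an unbroken stretch of guanines, so its first loop is itself a guanine. The setting in which loops could neither begin nor end with guanine was not run on these other transcripts. The values are per gene, so they do not say which transcripts were bound.

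The closest relatives of Prkag3, Brsk2 and Mark2 were searched in the same way. The other gamma subunit genes, Prkag1 and Prkag2, had 0 motifs, as Prkag3 did. Brsk1 had 3 motifs, 2 in the 5' UTR and 1 in the 3' UTR, more than the 1 of Brsk2. Among the MARK kinases Mark4 had 3, of which 2 lay in coding sequence and 1 in the 5' UTR. Mark1 and Mark3 had 0, beside the 4 of Mark2. These counts hold for the longest transcripts: Mark2 had 3 when loops could neither begin nor end with guanine and 1 in the transcript with the longest coding sequence, and the relatives were not searched under those settings. None of the 6 relatives was in the table. It held 0.743% of annotated protein-coding genes, so few or none of them would be listed at that share. Absence from a selected table gives no level, so the relatives cannot be compared in BG4 or IgG.

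**Figure D4:**
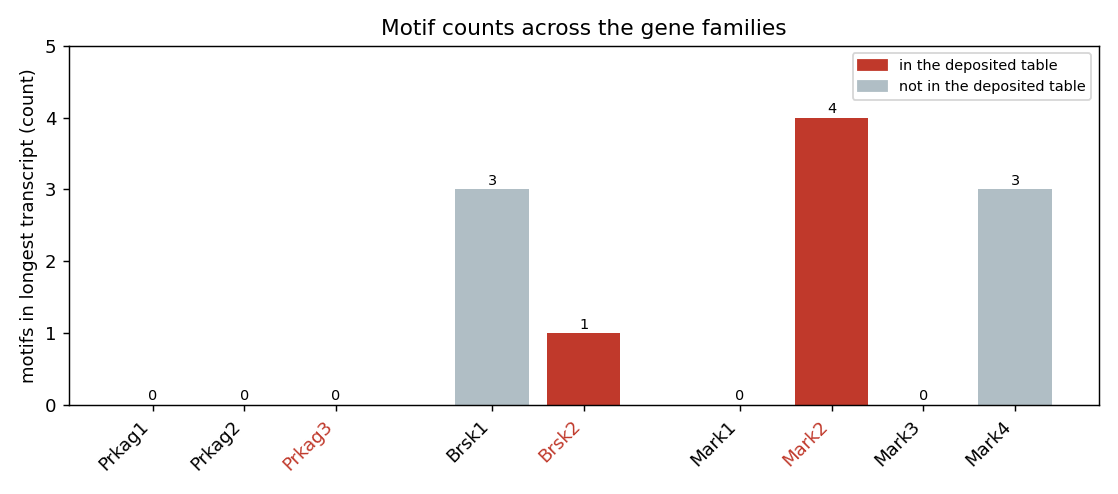
Number of putative G-quadruplex motifs in the longest annotated transcript of each gene of the AMPK gamma, BRSK and MARK families, with genes of the deposited table in red. Brsk1 and Mark4 had 3 motifs each, Mark2 had 4, Brsk2 had 1, and the other genes had 0.

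The wider pathway was looked up in 7 lists of 89 genes. Of these, 4 were in the table, and they were the 4 genes described, which had been picked from it. Over all annotated protein-coding genes, 163 of 21951 (0.743%) were in the table, and of the 85 other list genes 0 were, so lists of this size would hold few or no members at that share. The AMPK subunits held 1 of 7 (Prkag3), the AMPK-related kinases 2 of 13 (Brsk2 and Mark2) and the enzymes around phosphofructokinase 1 of 10 (Pfkfb3). The kinases upstream of AMPK and their partners had 0 of 8, the AMPK substrates 0 of 15, other glycolysis genes 0 of 22, and the polarity and microtubule partners of the MARK and BRSK kinases 0 of 14. The catalytic AMPK subunits Prkaa1 and Prkaa2 and the LKB1 gene Stk11 were thus not listed, which again gives no level for them.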

How the data were processed

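RNA from mouse forebrain bound by BG4 or by IgG was sequenced, 1 library each, after preparation with an Ion total RNA kit, per the labels' protocols. Cufflinks was used with build mm10, per the submitters' processing notes. Its version, the aligner, annotation and strand handling are each not given in the sources used here. Deposited values were taken to be FPKM, since the file header names no unit. The authors' deposited log2 values equalled the log2 of those values. Deposited p-values and q-values of each gene compare the 2 libraries, per the file headers. The table is a selection of 170 genes.

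The log2 ratio was log2 of (BG4 + 1) over (IgG + 1), which understates differences of low genes, with at least 1 FPKM in 1 library. No test was run. All 170 identifiers matched GENCODE M21 (same build). Once 1 was added to the start, the locus equalled the annotation for 106 of the 170 genes (62.4%), the 4 genes among them. Where transcripts tied in length, a protein-coding one was taken. A motif was assigned to the region of its middle base. The motif search was checked on simulated sequences in which guanine occurred only in the runs of planted motifs. Loops that contain guanine were therefore not checked. Motifs in introns were not analysed here, and motif results for Pfkfb3 are not reported here. The genes named were the 4 genes, the 2 nearest in both libraries, those just above and below by log2 ratio, list members and genes sharing their exons. Others, among them the relatives, the genes within the loci and Timm10b, were chosen after values were seen. Members and lists were chosen with earlier results of these data known. Python 3.11.15, pandas 2.3.3, numpy 2.4.6 and matplotlib 3.10.9 were used.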

Additional observations from a re-analysis of the deposited data

How the results depend on the processing

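No paired analysis was possible because each antibody had only 1 library. Changes of over 1.5-fold are given here. With a pseudocount of 0.1 FPKM the log2 ratio was 6.98 for Prkag3, 5.002 for Brsk2, 5.18 for Mark2 and 5.48 for Pfkfb3, with medians of 5.33 over the 4 genes and 4.95 over the table. With none these were 7.58, 6.32, 7.26 and 5.60, with medians of 6.79 and 5.76. The 1 FPKM added in the main ratio exceeds the IgG value of 153 of the 170 genes, which by construction lowers the ratio. Each library was also divided by its median over the table, which centres the table by construction. A pseudocount of 1 was then added, which here equals that median and shrinks the ratios of genes below it. On this scale the log2 ratios were 1.27, 0.19, 0.39 and -0.16, so that Pfkfb3 reversed, with medians of 0.29 and -0.0096. Without genes that share exon bases with another gene, and with 1 FPKM added, Brsk2 was removed. The median of the remaining members was then 4.69, which is the value of Pfkfb3. The table median was 2.87 again, and the filter on low values removed no gene.

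Motif counts with runs of 2 or more guanines were 6 in Prkag3, 12 in Brsk2 and 27 in Mark2. With loops up to 12 bases Brsk2 had 2, and over all annotated transcripts, with guanine allowed as a loop base, it had 3. In the transcript with the longest coding sequence Mark2 had 1. The counts of the other genes under these last 3 settings stayed as given, and Mark2 had 3 when loops could neither begin nor end with guanine. The depth of both libraries is unknown, and with it the precision of the low IgG values.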
